A study of Rattus norvegicus with 6 samples.

Results

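Caspases and the Bcl2 family carry out and restrain programmed cell death. The genes described here are those of a table of tumor mRNA levels whose symbol starts with Casp and a digit or with Bcl2, or is Mcl1, Bax, Bak1, Bok, a BH3-only gene, an inhibitor-of-apoptosis (IAP) gene other than Birc5, or one of the partners Apaf1, Cycs, Diablo, Cflar and Fadd. The row with the highest mean was used where a symbol was repeated. By this rule 41 of the 17030 symbols in the table were taken, by name and not by a measured value.

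The mRNA came from PAIII tumors, a hormone-resistant prostate adenocarcinoma carried by passage in Lobund-Wistar rats. PAIII cells were injected under the skin of the flank of rats 2 months old, and 10 random micropunches of viable primary tumor were pooled from each animal. In the digitoxin group, rats A1, A6 and A12 (replicates 1, 2 and 3) received the cardiac glycoside digitoxin at 0.03 mg/kg/day from day 10, and in the vehicle group rats B5, B9 and B14 (replicates 1, 2 and 3) received vehicle only. Tumors were taken on day 40, so n = 3 in each group. The treated rats were picked for low, and the controls for high, serum IL-6 and CINC-1, so treatment and serum marker level cannot be told apart.

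Levels are FPKM, fragments scaled to transcript length and to the mapped fragments of each library, as the authors deposited them. They are per length, so genes can be compared with each other. Sequencing depth is unknown, so no counting error can be given. The 6 columns summed to between 651322 and 1025231 FPKM, with 12148 to 13503 rows above 0. A1, A6, B5 and B9 stood apart from A12 and B14 by lung transcripts. The 8 lung alveolar markers summed to 27099 to 82627 FPKM in A1, A6, B5 and B9, and to 17.5 to 25.2 FPKM in A12 and B14, although all 6 are labelled as subcutaneous tumor. Airway markers ran from 20632 to 129252 FPKM in those 4 tumors against 1.56 to 2.31 FPKM in A12 and B14. Endothelial markers ran from 277 to 1203 against 41.8 to 52.0 FPKM, and T and NK cell markers from 86.2 to 143 against 18.2 to 29.6 FPKM. Neutrophil markers ran from 11416 to 63015 against 1362 to 3407 FPKM, sums carried by S100a8 and S100a9, whereas the neutrophil receptor Cxcr2 was lowest in A6 at 7.95 FPKM, below 8.95 in A12 and 12.7 in B14. Fibroblast markers went the other way, from 214 to 834 against 2778 to 3927 FPKM. Of the prostate epithelial genes, Krt8 was at 398 to 2095 FPKM, whereas Pbsn, a secretory gene of the prostate, was listed at 0 in all 6 tumors. The 5 proliferation markers summed to 28.7 FPKM in A6 and to 215 to 441 FPKM in the other 5 tumors. In bulk tissue, fewer cells of a type and less RNA per cell cannot be told apart.

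As background, caspases are proteases made as inactive precursors. Initiator caspases are switched on by death receptors or by the apoptosome, a complex of Apaf1 and cytochrome c, and in turn cut the executioner caspases. Bcl2 proteins decide whether the mitochondrial outer membrane opens: Bax, Bak1 and Bok form the pore, Bcl2 and its protective relatives hold them back, and BH3-only proteins counter the protective members. IAP proteins restrain caspases further down, and Diablo, released from mitochondria, removes the IAPs.

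Promoters are shown for the 5 genes that were lower in every digitoxin tumor than in every vehicle tumor. These genes were picked by their measured values, and none passed an adjusted p under 0.05 in the comparison below. RefSeq windows of 250 bases before the annotated start (assembly GRCr8) were found by symbol for 29 of the 41 genes. The 5 genes shown had 1 window each, printed 5′ to 3′ on the strand of its gene. The window of Bcl2 was chr13:23366901-23367150 on the minus strand. Those of Mcl1 (chr2:185907918-185908167), Casp2 (chr4:72116107-72116356), Casp12 (chr8:10926938-10927187) and Cflar (chr9:67679299-67679548) were on the plus strand. Capitals mark matches to the GC box, GGGCGG, or to the NF-kB consensus of 10 letters, searched on both strands.
Bcl2: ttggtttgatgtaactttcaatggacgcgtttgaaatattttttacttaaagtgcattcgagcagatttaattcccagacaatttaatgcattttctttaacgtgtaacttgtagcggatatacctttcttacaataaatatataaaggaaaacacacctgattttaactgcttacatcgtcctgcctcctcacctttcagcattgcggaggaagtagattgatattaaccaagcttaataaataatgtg
Mcl1: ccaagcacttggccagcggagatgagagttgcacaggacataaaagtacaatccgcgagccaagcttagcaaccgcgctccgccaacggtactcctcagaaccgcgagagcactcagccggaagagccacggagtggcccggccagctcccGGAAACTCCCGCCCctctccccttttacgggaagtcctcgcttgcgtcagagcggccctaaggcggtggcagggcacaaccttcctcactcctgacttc
Casp2: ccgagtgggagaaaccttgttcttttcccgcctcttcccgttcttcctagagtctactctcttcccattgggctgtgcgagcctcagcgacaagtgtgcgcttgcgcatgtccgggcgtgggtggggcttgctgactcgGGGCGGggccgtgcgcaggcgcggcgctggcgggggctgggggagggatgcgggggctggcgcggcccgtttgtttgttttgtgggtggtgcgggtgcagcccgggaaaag
Casp12: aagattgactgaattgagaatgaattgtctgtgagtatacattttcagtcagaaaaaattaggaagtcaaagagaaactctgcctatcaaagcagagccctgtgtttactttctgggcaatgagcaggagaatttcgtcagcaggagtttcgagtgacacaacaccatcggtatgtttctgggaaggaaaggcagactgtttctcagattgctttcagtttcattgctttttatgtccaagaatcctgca
Cflar: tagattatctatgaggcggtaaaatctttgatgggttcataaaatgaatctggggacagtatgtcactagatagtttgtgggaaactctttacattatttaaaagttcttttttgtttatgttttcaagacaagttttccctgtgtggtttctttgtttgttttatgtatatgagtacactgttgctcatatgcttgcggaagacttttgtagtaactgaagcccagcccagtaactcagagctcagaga
The 5 windows did not look alike. GC content was 66.8% for Casp2 and 62% for Mcl1 but 40.4% for Casp12, 36% for Cflar and 33.6% for Bcl2, against a median of 51.2% over all windows. The Mcl1 window held an NF-kB match 99 to 90 bases before the start and a GC box at 91 to 86, both on the minus strand and overlapping. The Casp2 window held a GC box at 111 to 106 on the plus strand. Neither motif was found in the Casp12, Bcl2 and Cflar windows. Over all 33469 windows of this length, 6.33% held an NF-kB match and 30.5% a GC box. Motifs were counted in the 26 tested genes with a window, which had 29 windows, some genes more than 1. Of these 29 windows 2 (Mcl1 and Pmaip1) held an NF-kB match and 17 a GC box. A match is a description of letters, not a binding site.

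Of the 41 genes, 37 reached a mean level of 1 FPKM across tumors and were tested among 10749 such rows. Casp14, a caspase of the skin barrier, was listed at 0 in every tumor. Hrk, a BH3-only gene, was above 0 in B5 alone, at 0.0181 FPKM. Bcl2l10 was at 0.228 FPKM in A1 and 0.426 FPKM in A6 and listed at 0 elsewhere. Bcl2l15 ran from 0 to 0.815 FPKM. An entry of 0 can be a failed estimate, since Col1a2, a collagen gene, was also listed at 0 in all 6 tumors while Col1a1 reached 1665 FPKM.

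The genes differed widely in level and in how steady they were from tumor to tumor. The highest means over the 6 tumors belonged to Bcl2a1 at 145 ± 70.4 FPKM (SD, n = 6), Bax at 110 ± 10.1 FPKM, Mcl1 at 104 ± 25.8 FPKM and Bok at 103 ± 53.9 FPKM. Bcl2 itself was the lowest of the 37 tested, at 1.59 ± 1.03 FPKM. Between the highest and the lowest tumor, Bcl2l12 varied 1.17-fold, Bax 1.24-fold and Casp9 1.42-fold. Bcl2l13 varied 74.3-fold and Xiap 90.1-fold, both with A6 lowest and B14 highest. Bcl2l11 was listed at 0 in A6 and reached 52.1 FPKM in B14.

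**Figure D1:**
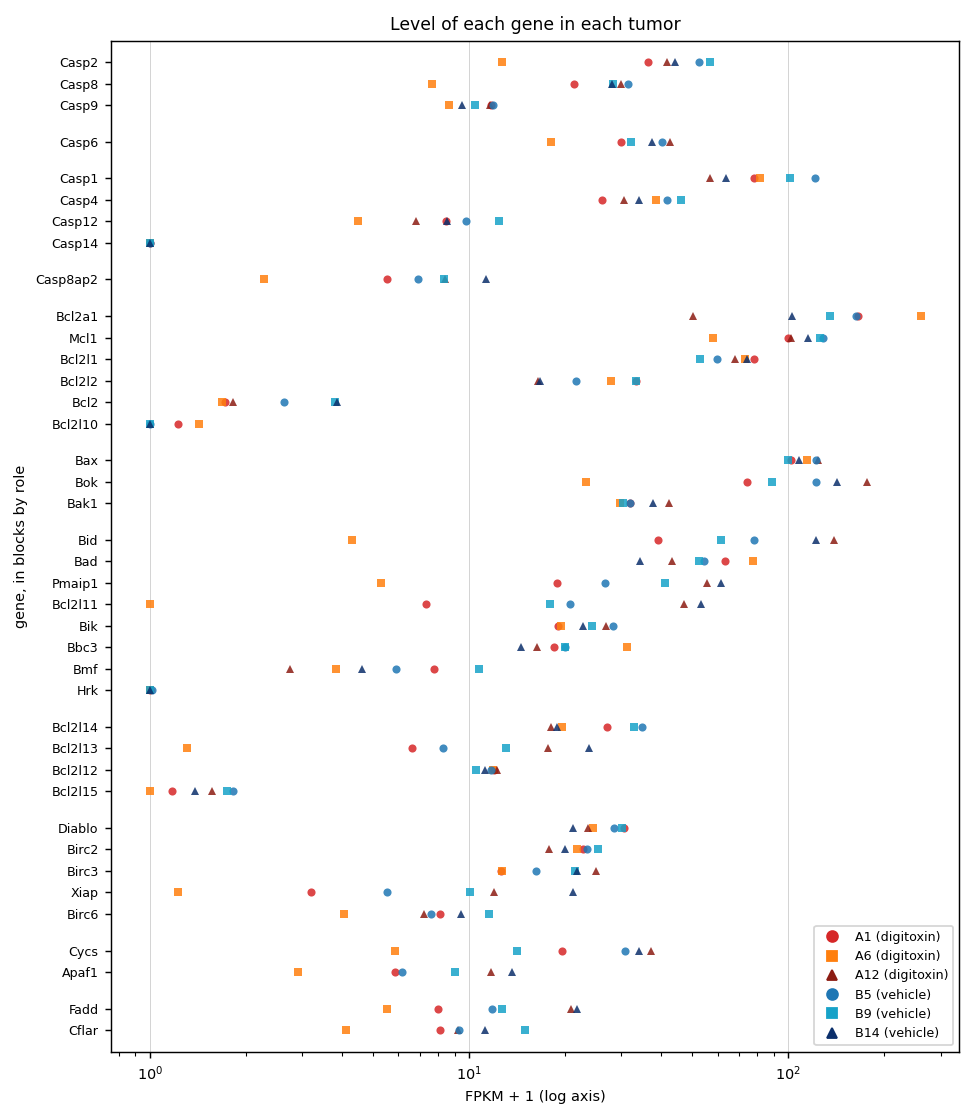
Level of the genes reported here as FPKM + 1 on a log axis, 1 point per tumor, with genes in blocks by role and warm colors for the 3 digitoxin tumors. Bax, Casp9 and Bcl2l12 form tight clusters, and the A6 point lies far to the left for Bid, Bcl2l11, Bcl2l13 and Xiap.

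The comparison of digitoxin with vehicle asks which transcripts differ between the tumors of low-marker treated rats and high-marker controls. None of the 37 genes passed an adjusted p under 0.05 in limma, and neither did any of the 10749 rows (0%). The smallest adjusted p among the genes was 0.926. At an unadjusted p under 0.05 there was 1 of the 37, Bcl2, where 36 of all rows (0.335%) passed. With the replicate number as a block, these counts became 3 of 37 (Bcl2, Bcl2l11 and Xiap) and 446 of all rows (4.15%).

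The fold changes leaned to lower values with digitoxin. Of the 37 genes 30 had a log2 fold change below 0, or 81.1%, where 64.9% of all rows did. Their median was −0.55 against −0.16 for all rows, a difference of −0.39. Under median-of-ratios scaling the median of all rows was 0.018, that of the genes −0.36, and 26 of 37 were below 0. With A6 left out, in which 22 of the 37 genes and 50.4% of all rows had their lowest value, the median of the genes was −0.18 and that of all rows −0.080. A6 was also lowest in the summed prostate epithelial markers, at 746 FPKM against 1554 to 2868 FPKM in the other tumors, and in the proliferation markers. Krt8, the largest part of the prostate sum, and Krt18 were lowest in A6. Epcam was lowest in A1, at 208 FPKM against 213 in A6, and Tmprss2 in A12, at 7.69 FPKM against 28.8 in A6. All 4 prostate epithelial and all 5 proliferation markers tested had a log2 fold change below 0, and their part in the lean was not tested.

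Separation of the groups was counted next. For 5 of the 37 genes (13.5%) the 3 digitoxin tumors all lay below the 3 vehicle tumors, as they did in 3.26% of all rows. These were Bcl2, Mcl1, Cflar, Casp2 and Casp12. One gene, Bcl2l12, lay above, as did 0.902% of all rows. Under median-of-ratios scaling 5 of these 6 still did not overlap, and Casp12 overlapped.

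**Figure D2:**
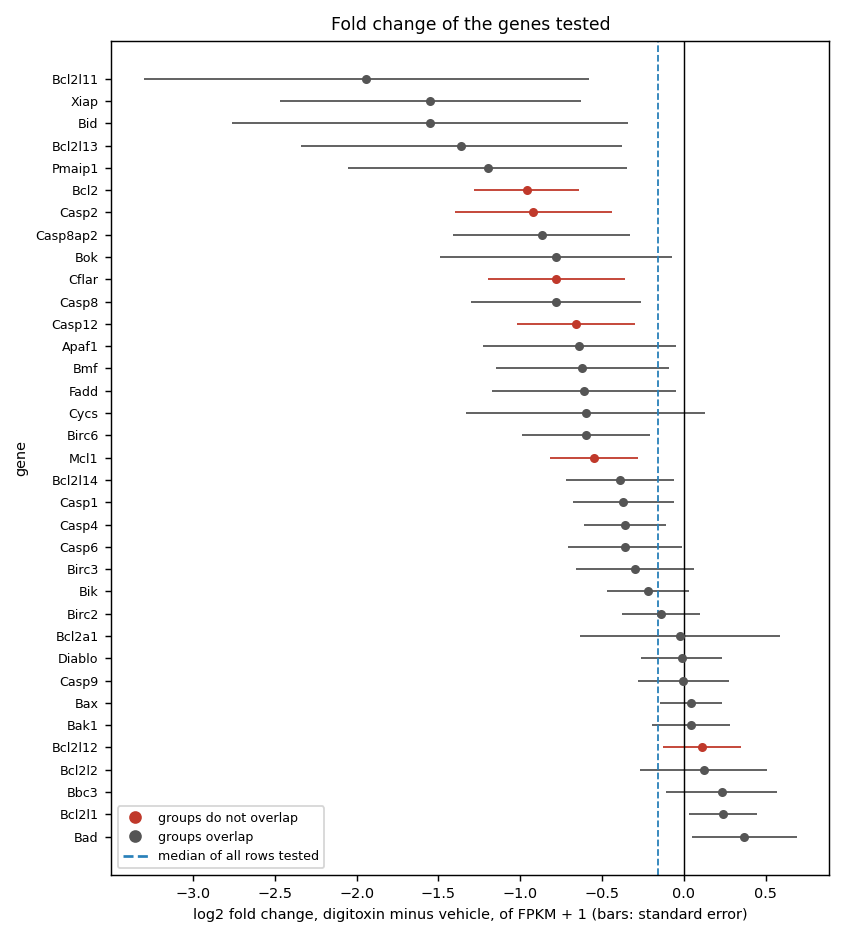
Log2 fold change of FPKM + 1, digitoxin minus vehicle, of the genes tested and reported here, with bars of 1 standard error, red for groups that do not overlap and a dashed line at the median of all rows, −0.16. Most points lie left of 0, from Bad at 0.37 down to Bcl2l11 at −1.94, and the bars of the lowest 5 are long.

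Among the protective members of the Bcl2 family, Bcl2 had the widest gap between groups relative to the spread. Bcl2, the founding inhibitor of mitochondrial cell death, was at 0.714 FPKM in A1, 0.684 in A6 and 0.818 in A12 with digitoxin. With vehicle it was at 1.64 FPKM in B5, 2.80 in B9 and 2.86 in B14. The highest digitoxin tumor lay below the lowest vehicle tumor, and the means were 0.739 ± 0.0703 and 2.44 ± 0.687 FPKM (SD, n = 3), a ratio of 0.303. The log2 fold change was −0.96 (SE 0.32, limma, unadjusted p = 0.0235, adjusted p = 0.926). It ran from −1.14 to −0.87 when 1 tumor was left out, where the highest unadjusted p was 0.0783 and 2 of the 6 fits had one under 0.05. With a lung marker covariate it was −0.95 (limma, unadjusted p = 0.0115), and with a pseudocount of 0.1 in place of 1 it was −1.56. Of the tumors low in lung transcripts, A12 was 1.09 log2 units below B14. All 6 levels were low, and their precision is unknown.

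Mcl1, a short-lived protective member, was at 98.9 FPKM in A1, 57.1 in A6 and 101 in A12, and at 127 in B5, 125 in B9 and 114 in B14. The groups did not overlap, with A6 far below the rest. Its log2 fold change was −0.55 (SE 0.27, limma, unadjusted p = 0.0863, adjusted p = 0.926), and −0.29 without A6. Bcl2l1, which encodes Bcl-xL, was at 76.8, 71.9 and 67.0 FPKM with digitoxin and at 58.7, 51.7 and 73.2 FPKM with vehicle. Its groups overlapped through B14, and the log2 fold change was 0.24 (SE 0.21, limma, adjusted p = 0.926).

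Bcl2a1, a protective member made mainly in blood cells, was at 164 FPKM in A1, 259 in A6 and 49.3 in A12, and at 162 in B5, 134 in B9 and 102 in B14. It was highest in A6 and lowest in A12, both digitoxin tumors, so the groups spanned each other and the log2 fold change of −0.024 (SE 0.61, limma, adjusted p = 0.996) became 0.17 under median-of-ratios scaling. The summed neutrophil markers were highest in A6 as well, at 63015 FPKM, and lowest in A12, at 1362 FPKM, but Cxcr2 was lowest in A6. Their part in the level of Bcl2a1 was not tested. Bcl2l2, a further protective member, ran from 15.4 FPKM in A12 to 32.4 FPKM in A1.

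The 6 protective genes together summed to 373, 416 and 233 FPKM in A1, A6 and A12 and to 370, 346 and 308 FPKM in B5, B9 and B14. What filled the sum differed from tumor to tumor. Bcl2a1 made up 62.3% of it in A6 and 21.1% in A12, and Mcl1 made up 13.7% in A6 and 43.2% in A12. Bcl2 itself stayed below 1% in all 6, from 0.164% in A6 to 0.929% in B14.

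The pore-forming members showed no separation. Bax was at 101, 113 and 123 FPKM with digitoxin and at 121, 98.5 and 107 FPKM with vehicle. The log2 fold change of Bax was 0.042 (SE 0.19, limma, adjusted p = 0.969). Bak1 lay between 28.7 and 41.2 FPKM, with its highest 2 levels in A12 and B14, and its log2 fold change was 0.044 (SE 0.24, limma, adjusted p = 0.973). Both values turned negative in some fits with fewer tumors. Bok was at 22.3 FPKM in A6 and 175 FPKM in A12, again with A12 and B14 above the other 4 tumors.

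BH3-only genes, which sense stress and death signals, varied widely between tumors. Bid, which caspase-8 cuts to link death receptors to mitochondria, was at 38.1 FPKM in A1, 3.29 in A6 and 138 in A12, and at 76.8 in B5, 60.4 in B9 and 121 in B14. Its highest and its lowest tumor were both in the digitoxin group. Its log2 fold change was −1.55 (SE 1.21, limma, adjusted p = 0.926) and −0.18 without A6. Bcl2l11, which encodes Bim, was at 6.34, 0 and 46.2 FPKM with digitoxin and at 19.7, 16.9 and 52.1 FPKM with vehicle. Singled out after its values were seen, its log2 fold change was −1.94 (SE 1.36, limma, adjusted p = 0.926), −0.54 without A6 and −3.32 without A12, and with the replicate block its SE was 0.71 and its unadjusted p 0.0318. Pmaip1, which encodes Noxa, was at 17.8, 4.31 and 54.6 FPKM with digitoxin and at 25.6, 40.0 and 60.3 FPKM with vehicle. All 3 genes were lowest in A6 and high in A12 and B14.

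The other BH3-only genes each had their own pattern. Bad, held inactive by growth factor signaling, was highest in A6 at 76.4 FPKM and lowest in B14 at 33.2 FPKM. Bbc3, which encodes Puma, was likewise highest in A6 at 30.3 FPKM and lowest in B14 at 13.5 FPKM. Bik ran from 18.0 to 27.2 FPKM and Bmf from 1.74 to 9.76 FPKM. In the sum of the BH3-only genes, which was 136 FPKM in A6 and 323 FPKM in A12, Bad made up 56.4% and Bid 2.43% in A6, against 13% and 42.5% in A12. B14 resembled A12, with 10.9% Bad and 39.6% Bid.

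**Figure D3:**
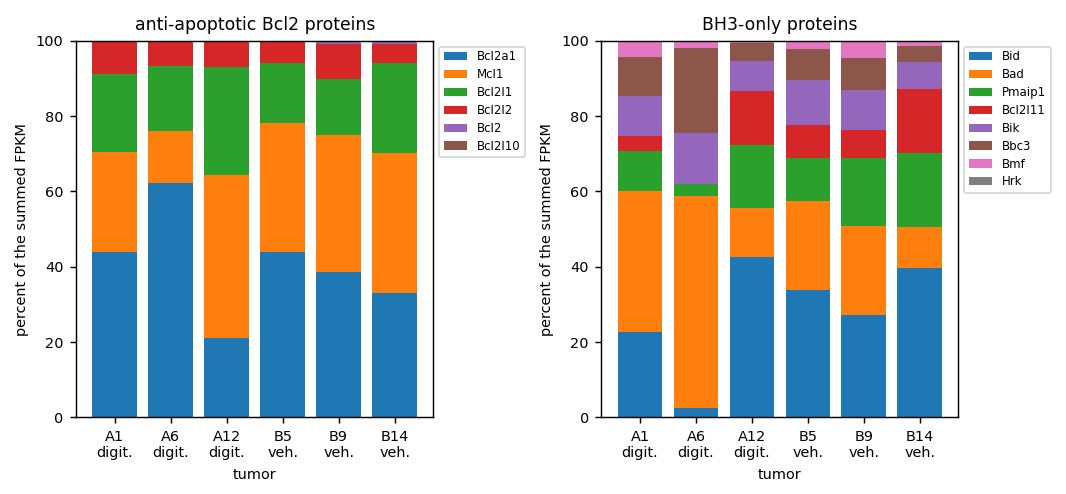
Stacked bars of the share of each gene in the summed FPKM of the protective Bcl2 genes (left) and of the BH3-only genes (right), 1 bar per tumor. Bcl2a1 fills 62.3% of the left bar of A6 and 21.1% of that of A12, and Bid almost vanishes from the right bar of A6.

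Of the remaining Bcl2-like genes, Bcl2l12 was the steadiest, at 11.0, 10.9 and 11.2 FPKM with digitoxin and 10.7, 9.53 and 10.2 FPKM with vehicle. The groups did not overlap, but by a narrow margin, and the log2 fold change was 0.11 (SE 0.24, limma, adjusted p = 0.947). Bcl2l14 was at 26.0, 18.6 and 17 FPKM with digitoxin and at 33.8, 31.9 and 17.8 FPKM with vehicle, a log2 fold change of −0.39 (SE 0.33, limma, adjusted p = 0.926). Bcl2l13, a mitochondrial member, ran from 0.305 FPKM in A6 to 22.7 FPKM in B14.

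All 9 caspases tested had a log2 fold change below 0, as did 64.9% of all rows, with a median of −0.37 against −0.16 for all rows. Of the 9, 2 were lower without overlap between groups, as were 3.26% of all rows. Under median-of-ratios scaling Casp9 was above 0, at 0.17. Casp2, an initiator that responds to DNA damage, was at 35.3 FPKM in A1, 11.7 in A6 and 40.8 in A12, and at 51.4 in B5, 55.8 in B9 and 43.0 in B14. The digitoxin tumors all lay lower, A12 by a small margin under B14. Its log2 fold change was −0.92 (SE 0.48, limma, unadjusted p = 0.10, adjusted p = 0.926) and −0.38 without A6.

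Casp8, the initiator of the death receptor route, was at 20.3, 6.66 and 28.9 FPKM with digitoxin and at 30.4, 27.3 and 27.0 FPKM with vehicle. The vehicle tumors were close together and A12 lay among them, so the log2 fold change of −0.78 (SE 0.52, limma, adjusted p = 0.926) was −0.21 without A6. Its partner Casp8ap2 ran from 1.28 FPKM in A6 to 10.3 FPKM in B14, a log2 fold change of −0.87 (SE 0.54, limma, adjusted p = 0.926) that was −0.35 without A6. Casp9, the initiator of the apoptosome, had nearly equal means, at 9.65 ± 1.72 and 9.61 ± 1.18 FPKM (SD, n = 3) and a log2 fold change of −0.0024 (SE 0.28, limma, adjusted p = 0.999).

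The executioner Casp6, which cuts nuclear lamins, was at 28.9 FPKM in A1, 17 in A6 and 41.5 in A12, and at 39.2 in B5, 31.1 in B9 and 36.3 in B14. Its highest tumor, A12, and its lowest, A6, were both treated with digitoxin.

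Of the inflammatory caspases, Casp1, which matures interleukin-1 beta, was at 76.8, 80.6 and 55.7 FPKM with digitoxin and at 120, 100 and 62.8 FPKM with vehicle. A12 and B14 were its lowest tumors, and the log2 fold change was −0.37 (SE 0.31, limma, adjusted p = 0.926). Casp12, a relative in the same cluster of the family, was at 7.44, 3.50 and 5.82 FPKM with digitoxin and at 8.77, 11.4 and 7.52 FPKM with vehicle. A1 and B14 nearly touched, and the log2 fold change was −0.66 (SE 0.36, limma, unadjusted p = 0.112, adjusted p = 0.926) and −0.41 without A6. Casp4, which senses bacterial lipopolysaccharide inside cells, ran from 25.1 FPKM in A1 to 45.1 FPKM in B9.

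**Figure D4:**
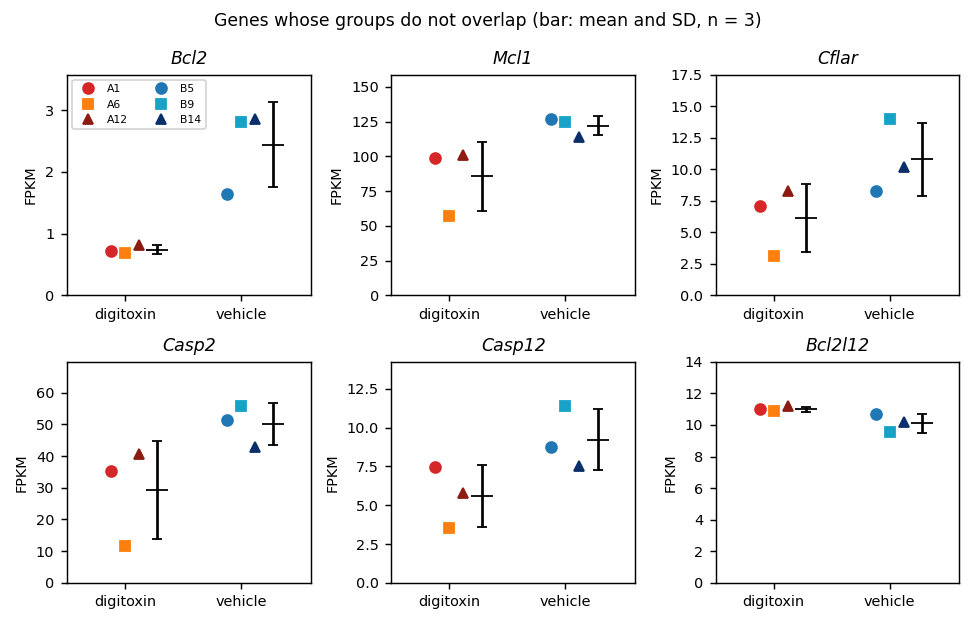
FPKM of the 6 genes whose groups do not overlap, 1 point per tumor on axes that start at 0, with the mean and SD of each group (n = 3). The 3 digitoxin tumors lie below the 3 vehicle tumors for Bcl2, Mcl1, Cflar, Casp2 and Casp12 and just above them for Bcl2l12.

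Both death receptor adaptors had lower means with digitoxin. Cflar encodes c-FLIP, which blocks caspase-8 at the receptor, and was at 7.12 FPKM in A1, 3.10 in A6 and 8.24 in A12, and at 8.27 in B5, 14 in B9 and 10.2 in B14. A12 and B5 were nearly equal, so the groups were separated only just, with a log2 fold change for Cflar of −0.78 (SE 0.42, limma, unadjusted p = 0.110, adjusted p = 0.926) that was −0.42 without A6. Fadd, which brings caspase-8 to the receptor, was at 6.99, 4.53 and 19.8 FPKM with digitoxin and 10.8, 11.7 and 20.7 FPKM with vehicle, a log2 fold change of −0.61 (SE 0.56, limma, adjusted p = 0.926) that was −0.20 without A6, −1.16 without A12 and −0.33 without B14.

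Both apoptosome genes had their highest levels in A12 and B14. Cycs, cytochrome c, was at 18.5, 4.84 and 36.1 FPKM with digitoxin and 29.8, 13.1 and 33.0 FPKM with vehicle, a log2 fold change of −0.60 (SE 0.73, limma, adjusted p = 0.926) that was 0.13 without A6. Cycs has many processed copies in the rat genome, so its level is uncertain. Apaf1, the scaffold of the complex, ran from 1.92 FPKM in A6 to 12.6 FPKM in B14.

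Among the IAPs, Xiap, which binds caspases directly, was at 2.20 FPKM in A1, 0.223 in A6 and 11.0 in A12, and at 4.54 in B5, 9.03 in B9 and 20.1 in B14. The digitoxin tumor was lower than the vehicle tumor of the same number for all 3 numbers, as it also was for other genes, such as Casp1 and Fadd. The labels name no pairing of tumors, and the share of all rows with this order was not counted. The groups overlapped, and the log2 fold change was −1.55 (SE 0.92, limma, unadjusted p = 0.143, adjusted p = 0.926). With the replicate block its SE was 0.53 and its unadjusted p 0.0240 in limma. With the lung marker covariate it was −1.44 (limma, unadjusted p = 0.0213). It was −0.77 without A6 (limma, unadjusted p = 0.375), −2.41 without A12 and −1.05 without B14.

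Birc3, an IAP that acts at the tumor necrosis factor receptor, was at 11.6, 11.7 and 24.0 FPKM with digitoxin and 15.2, 20.5 and 20.8 FPKM with vehicle, a log2 fold change of −0.30 (SE 0.36, limma, adjusted p = 0.926). Its relative Birc2 stayed between 16.8 and 24.3 FPKM, and the giant IAP Birc6 ran from 3.06 to 10.5 FPKM. Diablo, their antagonist, was at 25.2 ± 3.82 FPKM with digitoxin and 25.6 ± 4.76 FPKM with vehicle (SD, n = 3), a log2 fold change of −0.014 (SE 0.25, limma, adjusted p = 0.994) that was 0.18 under median-of-ratios scaling.

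The split between tumors high and low in lung transcripts was then followed across these genes. A12 and B14 both lay above the other 4 tumors for 14 of the 37 genes (37.8%), against 30.1% of all rows. Among them were Casp8ap2, Bok, Bak1, Bid, Pmaip1, Bcl2l11, Bcl2l13, Birc3, Xiap, Cycs, Apaf1 and Fadd. They lay below for 8 genes (21.6%), against 29.3% of all rows. These were Casp1, Bcl2a1, Bcl2l2, Bad, Bbc3, Bcl2l14, Diablo and Birc2. The summed marker levels of lung, airway, neutrophils, endothelium, T and NK cells and fibroblasts given at the start divide the same tumors, although single markers such as Cxcr2, the endothelial Cdh5 and the fibroblast Pdgfra do not, and their part in these levels was not tested.

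**Figure D5:**
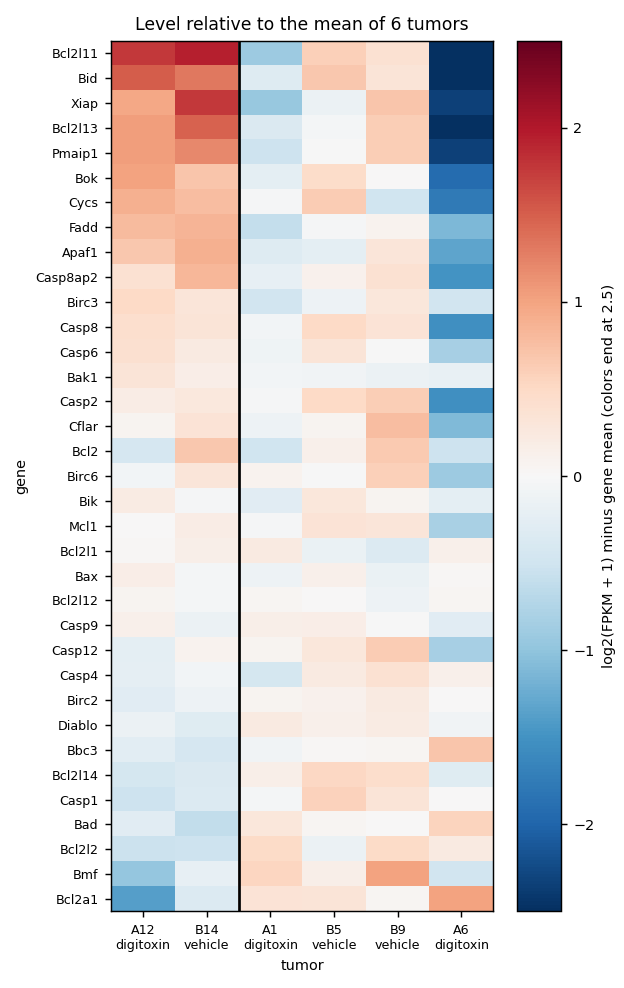
Heat map of log2(FPKM + 1) minus the gene's mean over the 6 tumors for the genes tested and reported here, with A12 and B14 left of the line and the other 4 tumors right of it. Genes at the top, such as Bcl2l11, Bid and Xiap, are high in A12 and B14 and lowest in A6, and Bcl2a1 at the bottom is highest in A6.

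The contrast of digitoxin with vehicle was also taken on each side of this split, with no test of the difference between the sides. Between A12 and B14, with 1 tumor a group and so no test, 21 of the 37 genes were lower with digitoxin (56.8%, against 51.3% of all rows), with a median difference of −0.066 on the log2 scale. There were 4 genes lower in A12 by at least 0.5 log2 units (Bcl2 by 1.09, Bcl2a1 by 1.04, Xiap by 0.82 and Bmf by 0.76), as were 9.51% of all rows, and none was higher by as much, where 1.97% of all rows were. Between A1 and A6 and B5 and B9, 31 of the 37 genes were lower (83.8%, against 64.6% of all rows), with a median of −0.63 against −0.24.

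In limma on those 4 tumors alone, 7 genes, among them Bcl2l11, Bid, Bok, Casp2, Pmaip1 and Xiap, had an unadjusted p under 0.05, or 18.9%, against 11.0% of all rows. None of the 7 passed after adjustment. The digitoxin and vehicle tumors did not overlap for 24 genes on the lower side, where 40.0% of all rows did, and for 4 on the higher side (Bcl2a1, Bcl2l1, Bad and Bcl2l12), where 17.2% did. With A12 alone left out, 12 genes (32.4%) had an unadjusted p under 0.05, against 19.7% of all rows. A6, whose proliferation markers summed to 28.7 FPKM, is 1 of the 2 digitoxin tumors in both of these fits, and the part of that low value in them was not tested.

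Genes around the pathway were read from a list of 38 partners, of which 31 were in the table and all 31 were tested. None passed an adjusted or an unadjusted p under 0.05 in limma and none was separated between groups. Over all rows 0.335% had an unadjusted p under 0.05 in limma and 4.16% were separated. Of the 31, 20 were lower and 11 higher, where 64.9% of all rows were lower. Their median was −0.062 against −0.16 for all rows. Death receptors and their ligands were mixed, 4 lower and 5 higher. Fas, a death receptor, lay between 5.56 and 8.62 FPKM, and Tnfrsf1a, the tumor necrosis factor receptor, between 56.8 and 91.8 FPKM.

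Of 8 inflammasome genes listed, 5 were in the table, with a median log2 fold change of 0.065 and none past the test. Il18, a cytokine cut by caspase-1, was at 110, 183 and 15.5 FPKM with digitoxin and 85.9, 57.6 and 21.4 FPKM with vehicle, following the lung split. Of 8 caspase substrates and nucleases 7 were lower, where 64.9% of all rows were, with a median of −0.13 that was not below the −0.16 of all rows. Among the 7 was Rock1 at 9.42, 1.20 and 16.8 FPKM with digitoxin and 12.3, 18.7 and 23.0 FPKM with vehicle. Rock1 encodes a kinase that drives membrane blebbing.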

How the data were processed

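The authors deposited 1 table of FPKM, with 1 column per tumor. Per the labels and the paper, TruSeq libraries were aligned with Bowtie2 and TopHat2 and quantified with Cufflinks. The submitters' processing notes name hg19, a human build, for these rat libraries, and no other build was given in the sources used here, so no coordinates of the table are printed. Cuffdiff needs reads and was not run. Columns left unmatched to a sample numbered 0. Reads were not analysed, so depth is unknown.

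Of 17557 rows, the 10749 with a mean of at least 1 FPKM were fitted as log2(FPKM + 1) with lmFit and eBayes with a trend (limma 3.58.1, R 4.3.3), with two-sided p-values given the Benjamini-Hochberg correction over all rows. The step was tested on simulated data. Other values were computed with Python 3.11.15 and pandas 2.3.3. Fold changes on this scale understate those of low genes. Each column is 1 tumor of 1 rat.

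Same-numbered tumors deviated together from their group means across rows (r = 0.426 for A1 and B5, 0.606 for A6 and B9, 0.869 for A12 and B14). The numbers were used as a block in an alternative, although A1 and A6 each deviated more closely with a vehicle tumor of another number. Of the 6 pairs of different number, A1 and B9 had r = 0.644 and A6 and B5 had 0.612, and the 4 pairs that set A12 or B14 beside another tumor had r from −0.75 to −0.661. The labels name no shared batch. Fold change, SE and p are given for genes whose groups did not overlap or whose unadjusted p was under 0.05, the gene with the highest mean in each role, and the textbook nodes of the pathway, and levels for the others. The members, lists and tests were chosen with earlier results of these data known. Other settings were the pseudocount, filter, scaling, trend, block, lung marker covariate and left-out tumors. Some genes of the counts are not reported here by name.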

Additional observations from a re-analysis of the deposited data

How the results depend on the processing

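None of the 37 genes passed an adjusted p under 0.05 in the main comparison or in any of 13 alternatives in limma. Over all rows, 2 passed with A12 and B14 left out together, and 0 to 2 when 1 tumor was left out. The number of genes with an unadjusted p under 0.05, 1 in the main comparison, was 3 with the replicate block, 2 with the lung marker covariate, 7 with A12 and B14 left out together and 0 to 12 when 1 tumor was left out. Over all rows the counts were 36, 446, 375, 1183 and 13 to 2114, and the 12 and the 2114 came without A12. The number of genes whose groups did not overlap, 6, was 28 with A12 and B14 left out together and 6 to 23 when 1 tumor was left out, where fewer tumors make separation easier. The share of all rows that did not overlap was 4.16%, 57.2% and 5.10% to 51.0% in turn, with the 23 genes and the 51.0% of rows without A12 and 11 genes and 10.4% without B14. Of the 22 genes given with a fold change, 16 kept their direction in every alternative. With A12 and B14 left out together, Bak1 turned to −0.013, Bax to −0.034 and Bcl2a1 to 0.48. A pseudocount of 0.1 moved Bcl2 from −0.96 to −1.56. Without 1 tumor Bid reached −2.69 and Casp8 −1.19 (A12 left out), Casp1 −0.18 (B5) and −0.64 (B14), Bcl2l14 −0.23 (B5) and −0.68 (B14), Birc3 −0.14 (A1 or A6) and −0.63 (A12), and Bcl2l1 0.13 (B9) and 0.38 (B14). Median-of-ratios scaling turned Bcl2a1 and Casp9 to 0.17 each and Diablo to 0.18. Without a change of direction, it moved Bax from 0.042 to 0.24 and Bak1 from 0.044 to 0.23. Bcl2l12 moved from 0.11 to 0.29 and Bcl2l1 from 0.24 to 0.43. Casp1 moved from −0.37 to −0.18 and Bcl2l14 from −0.39 to −0.20. Birc3 moved from −0.30 to −0.12 and Mcl1 from −0.55 to −0.36. When 1 tumor was left out, fold changes ran from −0.11 to 0.15 for Bak1, −0.026 to 0.12 for Bax, −0.53 to 0.66 for Bcl2a1, −0.078 to 0.14 for Casp9, −1.20 to 0.13 for Cycs and −0.17 to 0.083 for Diablo, and the cause was not tested. The replicate block changed no call by adjusted p. Depth is unknown, so low levels such as those of Bcl2 have no known error, and with 1 tumor of each group low in lung transcripts, no test of treatment was possible in such tumors alone.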
